A study of Homo sapiens with 11 samples.

Results

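The Polycomb repressive complex core genes were taken as a fixed set of 10 named genes: EZH1, EZH2, EED, SUZ12 and JARID2 of Polycomb repressive complex 2 (PRC2), and RING1, RNF2, BMI1, CBX2 and CBX8 of Polycomb repressive complex 1 (PRC1). Their rows were found in the gene count tables through the Ensembl identifiers of GENCODE, and 9 of the 10 had a row among the 23061 identifiers that matched the annotation. No row matched RING1, so its RNA was not analysed here and only the peaks at its gene are given. All 9 genes with a row passed the filter on low counts, and 10963 genes in all were tested.

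The cells were MDA-MB-231, an established human triple-negative breast cancer line. RNA-seq compared 2 WT libraries, from cells given the transfection reagent INTERFERin without siRNA, with 2 mH2A1.1 KD libraries, from cells given the reagent with 11 nM of an siRNA against macroH2A1.1, and both groups were harvested 3 days after transfection. macroH2A1.1 (mH2A1.1) is a splice isoform of the histone variant macroH2A1, made from the gene MACROH2A1. ChIP-seq of WT cells gave 1 list of peaks with an antibody against mH2A1.1 and 1 list with an antibody against macroH2A1 as a whole (mH2A1), so no peak has a replicate. Because the WT cells received no control siRNA, the presence of an siRNA and the loss of mH2A1.1 cannot be told apart, and no source used here says that the replicates came from separate cultures, so that p-values measure the spread between these libraries only.

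Polycomb complexes keep developmental genes silent by modifying histones. PRC2 methylates lysine 27 of histone H3 through EZH1 or EZH2, which need SUZ12 and EED to work, and PRC1 adds ubiquitin to histone H2A through RING1 or RNF2, paired with a PCGF protein such as BMI1. In canonical PRC1 a CBX protein binds the methyl mark that PRC2 leaves. macroH2A1 is known to be abundant in the same kind of silent chromatin, and EZH2 is often raised in aggressive breast tumours.

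The start regions of 4 members are shown because they carry the contrast in the peak lists described further on: EZH2 and SUZ12 had an mH2A1.1 peak at the gene start, whereas RNF2 and BMI1 had no peak of either antibody anywhere in the gene. Sequences are from RefSeq (GRCh38.p14) in the direction of transcription and are limited to the stretch upstream of the annotated exons. They come from chr7:148884322-148884541 (minus strand, EZH2), chr17:31936757-31937006 (plus strand, SUZ12), chr1:185045308-185045525 (plus strand, RNF2) and chr10:22320849-22321098 (plus strand, BMI1). Capitals mark the CCAAT box (CCAAT, or ATTGG on the opposite strand) and the E2F-type motif TTTCCCGC.
EZH2: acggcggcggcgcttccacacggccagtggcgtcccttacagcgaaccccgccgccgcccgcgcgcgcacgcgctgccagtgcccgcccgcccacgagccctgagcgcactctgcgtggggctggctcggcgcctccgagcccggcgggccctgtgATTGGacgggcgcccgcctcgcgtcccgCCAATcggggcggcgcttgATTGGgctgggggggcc
SUZ12: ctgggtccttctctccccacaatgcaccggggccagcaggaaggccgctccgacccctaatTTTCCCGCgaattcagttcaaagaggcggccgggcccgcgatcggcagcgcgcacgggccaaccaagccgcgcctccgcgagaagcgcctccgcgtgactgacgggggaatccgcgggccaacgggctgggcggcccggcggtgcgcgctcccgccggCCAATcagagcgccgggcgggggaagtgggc
RNF2: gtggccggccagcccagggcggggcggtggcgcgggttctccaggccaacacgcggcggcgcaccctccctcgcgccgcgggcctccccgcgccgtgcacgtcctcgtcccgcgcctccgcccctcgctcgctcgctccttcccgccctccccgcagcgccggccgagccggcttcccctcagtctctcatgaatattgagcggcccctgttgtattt
BMI1: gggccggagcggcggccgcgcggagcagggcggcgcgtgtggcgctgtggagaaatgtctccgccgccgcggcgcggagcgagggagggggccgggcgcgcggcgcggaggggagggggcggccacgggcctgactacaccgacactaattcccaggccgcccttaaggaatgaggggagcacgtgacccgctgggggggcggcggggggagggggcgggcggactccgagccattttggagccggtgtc

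All 4 stretches are rich in CpG and none holds a TATAAA box. Entries were found for 8 of the 10 members and not for CBX2 and CBX8. In the whole 300-base window, 250 bases before to 50 after the start, EZH2 had 46 CpG, RNF2 41, SUZ12 40 and BMI1 36, against a median of 14 and an upper quartile of 28 over all 35116 windows of that length. EED had the poorest window, with 16 CpG. That window (chr11:86244503-86244802) lay inside the gene and away from the gene start at 86201212 that is used for the peaks. It holds the start of the Ensembl canonical transcript of EED, at 86244753. RING1 had 41, EZH1 30, and the 2 annotated starts of JARID2 had 24 and 40. The second annotated starts of EZH2 and BMI1 had 45 and 65.

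The motifs TTTCCCGC, TTTGGCGC, CCAAT and TATAAA were searched on both strands of these windows, and no match overlapped another. Positions count from the first base of the transcript as 1. TTTCCCGC, found in 1.63% of all windows, was present only in SUZ12 among the members, 189 bases upstream of the start. TTTGGCGC, also an E2F-type motif and found in 0.652% of windows, was present only in EZH2, from position 2 of the transcript. EZH2 and EED are known targets of E2F factors in dividing cells. CCAAT, found in 34.6% of windows, was present in EZH2, SUZ12, EED and JARID2, and TATAAA, found in 11.5%, only in JARID2. A match of letters is a description of the window and not a measured binding site.

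The libraries held between 2309549 and 9794674 counts, and the KD replicate 2 library stood apart from the other 3. It was the shallowest and held 30 counts on chromosome 21 and 0 on chromosomes 22 and X, where the others held 44311 to 379581 counts per chromosome. Genes of these 3 chromosomes were left out of the fit, and no member lies on them. Each library is from many cells and is scaled to its own total, so fewer expressing cells and less RNA per cell cannot be told apart. Pearson's r of log2 CPM (counts scaled to the size of each library, with TMM factors) was 0.993 for the pair of WT libraries and 0.957 for the KD pair. MACROH2A1, the targeted gene, was at 385 and 394 CPM in WT and at 274 and 300 CPM in KD, a log2 fold change of -0.44 ± 0.173 (SE), with an edgeR adjusted p of 0.205. Counts per gene do not separate its isoforms, so they do not measure the loss of mH2A1.1 itself. Of the epithelial markers, KRT8, KRT18 and KRT19 were abundant, EPCAM had 45 to 189 counts and CDH1 2 to 22, and the mesenchymal markers VIM and FN1 were abundant. KRT8, KRT18, KRT19, VIM and FN1 were above both WT libraries in KD, and EPCAM and CDH1 overlapped. DESeq2 without chromosomes 21, 22 and X called KRT8, KRT18, KRT19 and VIM higher, and with the correction for base composition given further on edgeR called KRT8 (0.72) and KRT19 (0.59) higher. The part of these markers in the results of the Polycomb genes was not tested. The receptor genes ESR1 and PGR had 0 counts in all 4 libraries, although ERBB2 was counted.

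Per length, the WT cells expressed all 9 measured members, from moderate to high levels. In reads per kilobase of exon and scaled library size (RPKM, mean ± SD of the 2 WT libraries), SUZ12, the PRC2 scaffold, was highest at 28.7 ± 0.228, followed by JARID2, which helps to recruit PRC2, at 22.9 ± 0.0293. BMI1 stood at 14.0 ± 1.48 and EZH2 at 13.5 ± 0.00664, and their libraries overlapped, so that this pair has no order. RNF2 was at 12.1 ± 0.766, EED at 6.77 ± 0.0584 and EZH1 at 5.48 ± 0.144. The chromodomain genes were lowest, CBX8 at 2.97 ± 0.347 and CBX2 at 2.62 ± 0.325, and these overlapped with each other as well. SUZ12 was thereby at the 90.6th percentile of all genes with a count in WT, and CBX2 at the 42.7th. The levels use all annotated exons of a gene as its length. For BMI1 this includes the 22.8% of exon bases shared with the readthrough gene COMMD3-BMI1, on which default counting leaves reads out. The level of BMI1 may thus be understated, and its lack of order with EZH2 holds for this length only.

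In the KD libraries, 3 of the 9 measured members (EZH1, JARID2 and CBX2) were above both WT libraries, 5 (EZH2, EED, SUZ12, RNF2 and BMI1) were below both, and CBX8 overlapped. Over all genes tested, 32.5% had both KD libraries above and 32.4% had both below. The members' median log2 fold change was -0.25, and that of all genes tested was 0.01. No member was called at the thresholds used, an adjusted p under 0.1 with a fold change over 1.5, and neither was any other gene (edgeR quasi-likelihood test, 0% of 10963), the smallest adjusted p of any gene being 0.176. At an unadjusted p under 0.05, JARID2 and CBX2 were higher and EZH2, SUZ12 and RNF2 were lower, beside 11.8% of all genes higher and 11.4% lower.

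**Figure D1:**
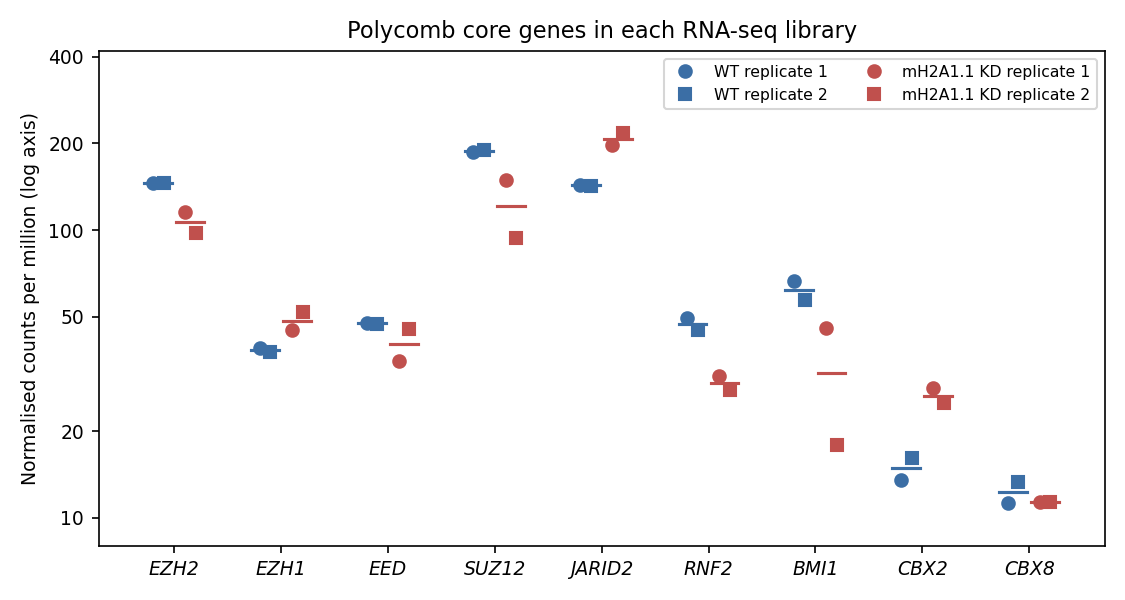
Normalised CPM (log axis) of the 9 measured Polycomb core genes in each RNA-seq library, with WT in blue and mH2A1.1 KD in red, circles for replicate 1, squares for replicate 2 and a line at each group's mean. JARID2 and CBX2 lie higher in both KD libraries, RNF2 lies lower in both, and the 2 KD libraries are far apart for SUZ12 (149 and 94.0) and BMI1 (45.7 and 18.0).

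EZH2, the main PRC2 methyltransferase of dividing cells, was at 145 CPM in both WT libraries and at 115 and 97.8 CPM in KD replicates 1 and 2. Both KD libraries were lower, and the WT libraries were almost equal. The log2 fold change was -0.44 ± 0.181 (SE), with an edgeR adjusted p of 0.210. EZH1, its paralogue that is used more by resting cells, was at 39.0 and 37.6 CPM in WT and at 45.0 and 52.0 CPM in KD. It thus differed in the other direction, by 0.33 ± 0.192 on the log2 scale (edgeR adjusted p = 0.307).

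The core partners of both enzymes were also lower in KD, with unequal size in the 2 KD libraries. SUZ12 was at 187 and 189 CPM in WT and at 149 and 94.0 CPM in KD. KD replicate 2 was well below KD replicate 1, and the log2 fold change was -0.62 ± 0.244 (edgeR adjusted p = 0.205). It was -0.33 without KD replicate 2 and -1.01 without KD replicate 1. EED, which reads the methyl mark and stimulates the enzyme, was at 47.7 and 47.1 CPM in WT and at 35.1 and 45.4 CPM in KD. The second KD library was close to WT, and the log2 fold change was -0.25 ± 0.207 (edgeR adjusted p = 0.449), and it was -0.07 without KD replicate 1 and -0.43 without KD replicate 2.

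JARID2, the PRC2 accessory subunit that binds chromatin marked by PRC1, differed in direction from EZH2, SUZ12 and EED in this fit. With the correction for base composition given further on, JARID2 and EED had the same sign. JARID2 was at 143 CPM in both WT libraries and at 198 and 218 CPM in KD. The KD libraries were close to each other and clear of WT, and the log2 fold change was 0.54 ± 0.174, with an edgeR adjusted p of 0.194. Its fold change stayed between 0.38 and 0.60 on the log2 scale over all 16 alternatives run. DESeq2 on all chromosomes gave JARID2 an adjusted p of 0.00202, with a fold change under 1.5.

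Of the PRC1 ubiquitin ligase, RNF2 was at 49.3 and 45.1 CPM in WT and at 31.0 and 27.9 CPM in KD. The 2 KD libraries were close to each other, and the log2 fold change was -0.67 ± 0.196 (edgeR adjusted p = 0.194). BMI1, the PCGF partner of the ligase, was at 66.3 and 57.1 CPM in WT and at 45.7 and 18.0 CPM in KD, the last resting on 38 counts. The largest difference of any member was that of BMI1, -0.88 ± 0.372 on the log2 scale, and also the one with the largest error (edgeR adjusted p = 0.216). Without KD replicate 2 it was -0.43, and without KD replicate 1 it was -1.79. Of the exon bases of BMI1, 22.8% are shared with the annotated readthrough gene COMMD3-BMI1, which had 0 counts in all libraries, and reads on shared bases are left out by the default counting.

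The chromodomain genes, whose products bind trimethylated lysine 27 of histone H3, gave opposite signs. CBX2 was at 13.6 and 16.2 CPM in WT and at 28.2 and 25.0 CPM in KD. All 4 libraries were separated by group, and the log2 fold change was 0.85 ± 0.218 (edgeR adjusted p = 0.194). The KD values rest on 149 and 53 counts. CBX8, its neighbour on chromosome 17, was at 11.3 and 13.3 CPM in WT and at 11.3 CPM in both KD libraries. The groups overlapped, with a log2 fold change of -0.11 ± 0.241 (edgeR adjusted p = 0.783).

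Other fits of the same counts called members. The study itself used DESeq2 with the same thresholds and reported 945 genes with changed expression. In the present fits, DESeq2 on all chromosomes, with its own size factors, called CBX2 higher (log2 fold change 0.84 ± 0.266, adjusted p = 0.0310) and RNF2 lower (-0.68 ± 0.208, adjusted p = 0.0252), beside 4.43% of all genes higher and 5.78% lower. Without chromosomes 21, 22 and X, DESeq2 called none of the members, and the adjusted p was 0.116 for CBX2 and 0.131 for RNF2, beside 5.52% of genes higher and 5.73% lower.

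The direction of the members lined up with the base composition of their exons, as it did over all genes. EZH2, EED, SUZ12, RNF2 and BMI1, with 36.4% to 40.3% GC in their exons, were all in the lowest of 5 equal bins of tested genes by GC content, where the median log2 fold change was -0.47 and 9.18% of genes had a positive value. EZH1 (49.1% GC) was in the middle bin, with a median of 0.02, and JARID2 (50.7%) was in the next bin, with a median of 0.29. CBX2 (60.0%) and CBX8 (58.0%) were in the highest bin, where the median was 0.47. The trend was steeper in KD replicate 2, in which the bins' medians ran from -0.79 to 0.74 relative to the WT mean, than in KD replicate 1, in which they ran from -0.25 to 0.19. CBX8 was the only one of these 9 genes with the opposite sign to its bin median in both KD libraries, and others, such as JARID2 (0.47 and 0.61) and BMI1 (-0.43 and -1.78), lay farther out than their bin medians in both. The part of base composition in these results was not tested beyond the correction that follows.

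**Figure D2:**
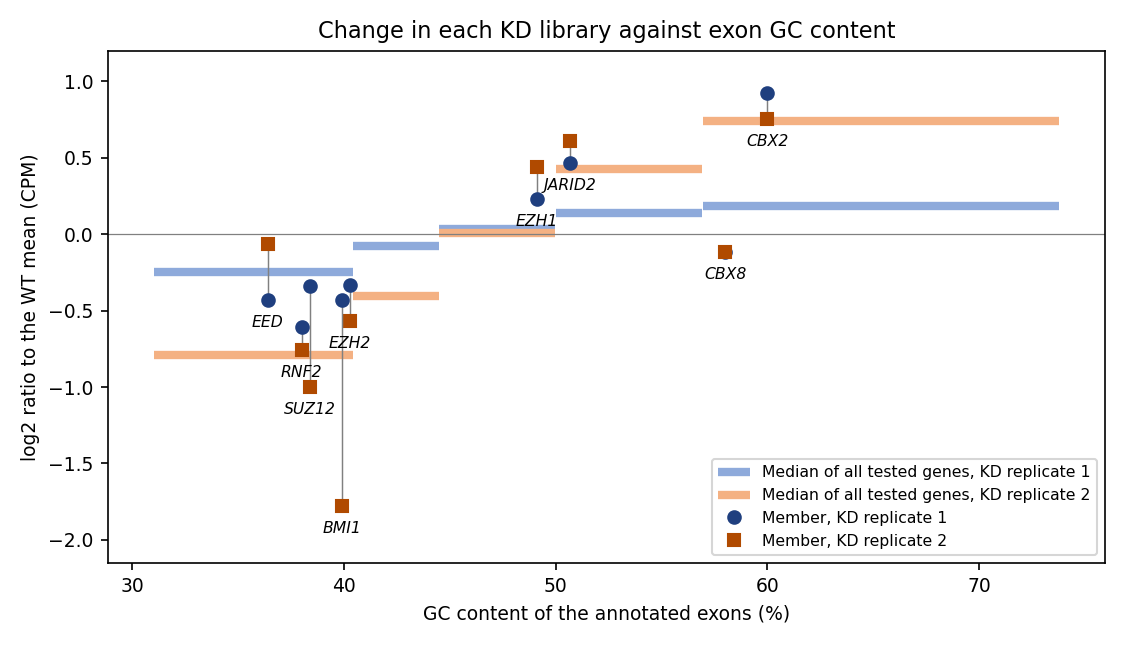
Log2 ratio of each KD library to the WT mean (CPM) of the 9 measured Polycomb core genes against the GC content of their annotated exons in percent, with circles for KD replicate 1, squares for KD replicate 2 and horizontal bars for the median of all tested genes in each of 5 bins of GC content. The bars use CPM plus 0.5 and the mean of the WT log2 values, whereas the points use CPM without an added value. The bars run from -0.25 to 0.19 in KD replicate 1 and from -0.79 to 0.74 in KD replicate 2, and BMI1 in KD replicate 2 (-1.78) lies farthest from its bar.

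With each library corrected for exon GC content and length, the bins' medians lay between -0.0042 and 0.015, and most of the members' differences became smaller. JARID2 kept 0.38 ± 0.0946 on the log2 scale and had the smallest adjusted p of the members, 0.0681 by edgeR, with a fold change under 1.5. The other values with an absolute size over 0.4 were those of CBX2, 0.51 ± 0.222, BMI1, -0.47 ± 0.208, and CBX8, -0.43 ± 0.212, none with an edgeR adjusted p under 0.19. These rest on single libraries: without KD replicate 1 the corrected value was 0.06 for CBX2, -1.12 for BMI1 and -0.74 for CBX8, and without KD replicate 2 it was 0.77, -0.24 and -0.26. The values of SUZ12 (-0.13), EZH2 (-0.09) and RNF2 (-0.21) were closer to 0, EZH1 was at 0.23, and EED turned from -0.25 to 0.30 ± 0.262. The corrected value of EED was 0.90 without KD replicate 1 and -0.10 without KD replicate 2. No member was called in the corrected fit of all libraries, beside 2.17% of all genes higher and 3.17% lower, and the median of the members was -0.09.

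**Figure D3:**
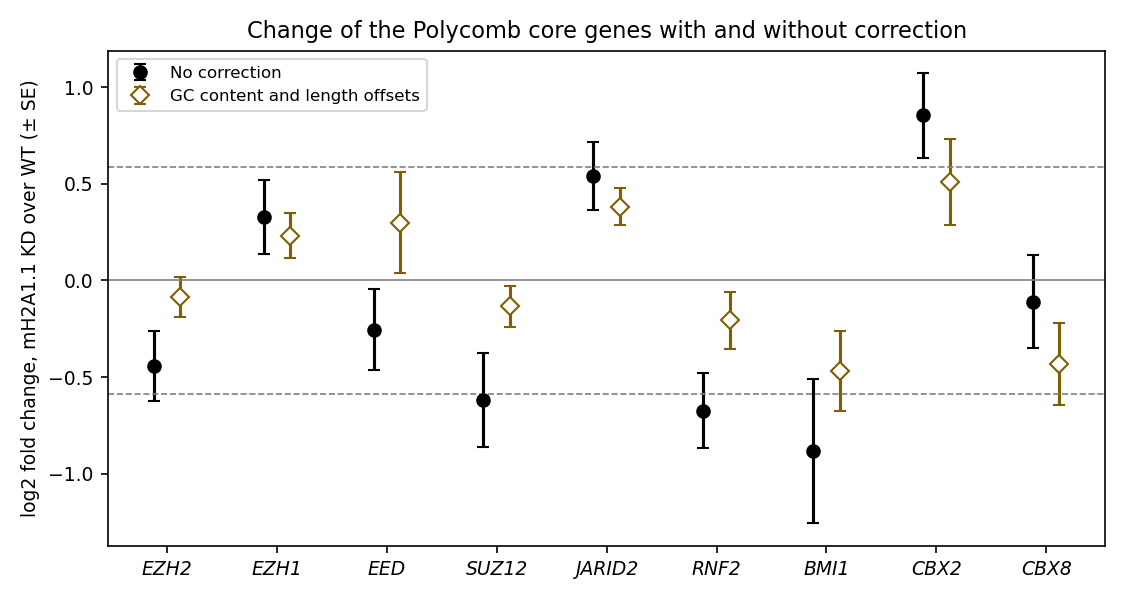
Log2 fold change (mH2A1.1 KD over WT, ± SE) of the 9 measured Polycomb core genes from edgeR without correction (filled circles) and with offsets for exon GC content and length (open diamonds), with dashed lines at a fold change of 1.5. JARID2 and CBX2 stay above 0 in both fits, SUZ12, EZH2 and RNF2 move towards 0, and EED moves from -0.25 to 0.30.

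The other subunits of PRC2 gave no call in either direction. Of 9 listed genes, 7 had a row, 2 of which were on the chromosomes left out, and 5 were tested. In KD, 3 were below both WT libraries, 0 were above and 2 overlapped. For this list and those that follow, the shares over all genes tested were 32.4% below and 32.5% above. The median log2 fold change of the 5 was -0.45, or -0.10 with the GC content and length correction. Of these 5, 2 had an unadjusted edgeR p under 0.05 and both were lower, beside 11.4% of all genes lower and 11.8% higher. RBBP7, a histone-binding PRC2 subunit on chromosome X, was counted 2919 and 2415 times in WT and 1655 times in KD replicate 1, and its value in KD replicate 2 was 0, as for the rest of that chromosome.

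Among the other subunits of canonical PRC1, 4 of 8 listed genes were tested, and 1 was above, 2 below and 1 overlapped. Their median was -0.25, or -0.29 with the correction. PHC3, a polyhomeotic protein that helps PRC1 to oligomerise, was at 166 and 141 CPM in WT and at 93.3 and 75.1 CPM in KD. Its log2 fold change was -0.86 ± 0.201 (edgeR adjusted p = 0.194), and DESeq2 without chromosomes 21, 22 and X called it lower (adjusted p = 0.0287). With the GC content and length correction it was -0.34.

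Of 18 listed subunits of variant PRC1, which lacks CBX proteins, 14 were tested, and 5 were above, 4 below and 5 overlapped. Their median was -0.04, or -0.12 with the correction. PCGF6, the PCGF protein of a variant complex that binds with MGA and MAX, was at 12.8 and 14.2 CPM in KD, against 27.1 ± 0.131 CPM (mean ± SD, n = 2) in WT. The replicates were close within both groups, and the log2 fold change was -1.02 ± 0.214 (edgeR adjusted p = 0.176, DESeq2 without chromosomes 21, 22 and X 0.0594). PCGF6 was also called lower with the correction, at -0.91 ± 0.170 and an edgeR adjusted p of 0.0373. PCGF5, another PCGF protein, was at 227 and 187 CPM in WT and at 146 and 90.7 CPM in KD, and DESeq2 without chromosomes 21, 22 and X called it lower (adjusted p = 0.0661), whereas its log2 fold change was -0.79 without and -0.22 with the correction.

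Enzymes that remove Polycomb marks and their cofactors gave no call in the reported edgeR fit. Of 12 listed, 7 were tested, and 5 were above, 1 below and 1 overlapped, with a median of 0.30, or 0.16 with the correction. MYSM1, a deubiquitinase of histone H2A, was at 51.5 and 46.3 CPM in WT and at 30.8 and 16.5 CPM in KD, and DESeq2 without chromosomes 21, 22 and X called it lower (adjusted p = 0.0545), with an edgeR log2 fold change of -0.99 ± 0.289. With the correction MYSM1 was at -0.50 and was not called, by edgeR or by DESeq2 (adjusted p = 0.194). KDM6B, a demethylase of lysine 27 of histone H3, was at 27.4 and 25.9 CPM in WT and at 38.4 and 48.7 CPM in KD, and DESeq2 on all chromosomes called it higher (adjusted p = 0.0472). Its edgeR log2 fold change was 0.69 ± 0.210 without and 0.26 with the correction, where it was not called.

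The mH2A1.1 antibody gave 30687 peaks in WT cells and the mH2A1 antibody 24222, all on a grid of 3000 bases and with no score. The study reports that the mH2A1 antibody binds both isoforms, with less affinity for tagged mH2A1.1 than the mH2A1.1 antibody has. A missing mH2A1 peak therefore does not show that macroH2A1 was absent. An mH2A1.1 peak lay within 500 bp of the annotated gene start in 4 of the 10 members (EZH2, SUZ12, CBX2 and CBX8), against 37.8% of 23061 genes, and all 4 of these peaks shared 1 bp or more with the mH2A1 list, so that 4 of the 10 members had such a shared peak at the start, against 23.8% of the 23061 genes. An mH2A1 peak lay at the gene start of CBX8 alone among the members, against 21.2% of genes. That start is at 79801683, and no mH2A1 peak lay at the start of the Ensembl canonical transcript of CBX8, at 79797077. Within the gene, 7 members had an mH2A1.1 peak (59.9% of all genes) and 5 had an mH2A1 peak (42% of all genes). No test was made of these counts against the shares over all genes. RING1, which had no row of counts, is among the 10 members but not among the 23061 genes.

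**Figure D4:**
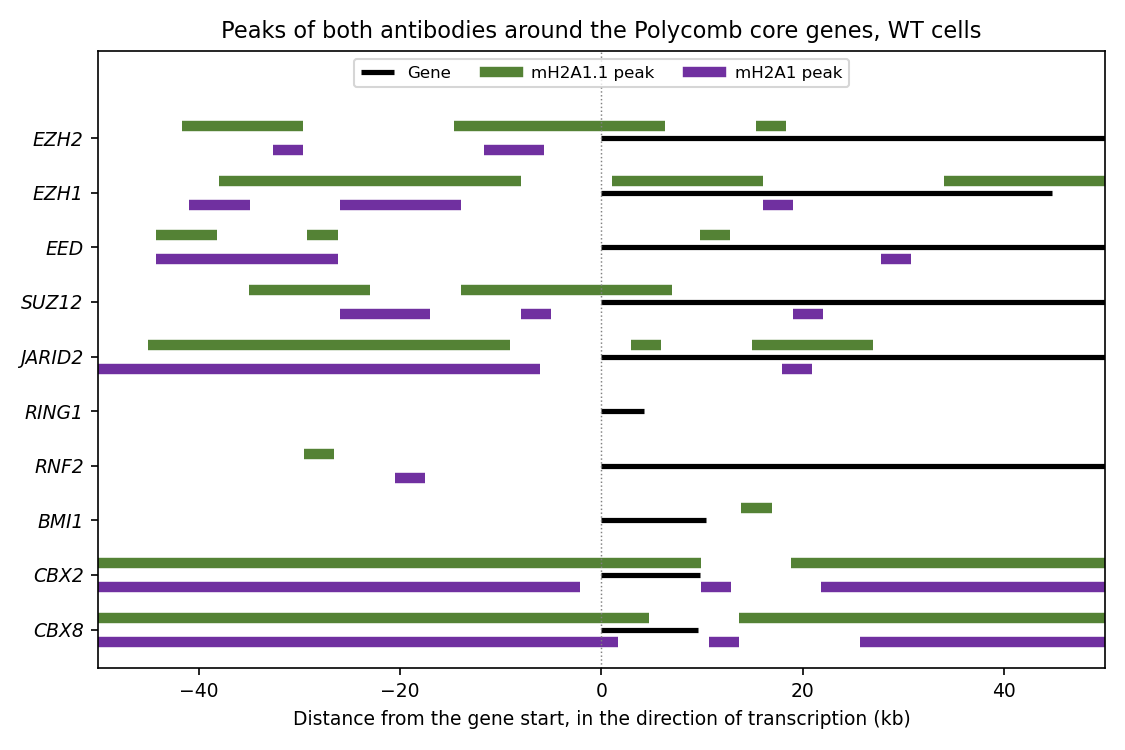
Position of mH2A1.1 peaks (green) and mH2A1 peaks (purple) in WT cells within 50 kb of the annotated start of the 10 Polycomb core genes, with the distance in kb in the direction of transcription and each gene as a black line. Peaks of mH2A1.1 span the start of EZH2, SUZ12, CBX2 and CBX8, while RING1, RNF2 and BMI1 carry no peak within the gene.

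The PRC2 genes differed in how much of the gene the peaks covered. At EZH2 (chr7:148807257-148884321, minus strand) a 21000-bp mH2A1.1 peak covered the start, reaching 6320 bp into the gene, and 6000 bp of it were shared with an mH2A1 peak that lay upstream. SUZ12 (chr17:31937007-32001038, plus strand) had a peak of the same width, reaching 6993 bp into the gene, with 3000 bp shared. These 2 peaks therefore cover the upstream stretches printed for both genes. EZH1 (chr17:42700275-42745049, minus strand) had no peak at its annotated start, but its nearest mH2A1.1 peak began 1049 bp inside the gene, and mH2A1.1 peaks covered 57.5% of its length. JARID2 (chr6:15246069-15522042, plus strand) held 7 mH2A1.1 peaks, the first 2932 bp from the start, which covered 17.4% of the gene, and 4 mH2A1 peaks, which covered 4.35%. In EED (chr11:86201212-86278813, plus strand) 1 peak of each antibody, 3000 bp wide and not shared, covered 3.87% of the gene.

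Of the PRC1 genes, the ligase pair and BMI1 lacked peaks. The nearest mH2A1.1 peak lay 26526 bp from the start of RNF2 (chr1:185045526-185102603, plus strand), 13902 bp from that of BMI1 (chr10:22321099-22331484, plus strand) and 277501 bp from that of RING1 (chr6:33208500-33212722, plus strand). For RING1 the nearest mH2A1 peak lay at the same distance, and whether peaks could be called around that gene was not tested. CBX2 (chr17:79778148-79787983, plus strand), by contrast, lay wholly inside a 96000-bp mH2A1.1 peak, as did 12% of all genes inside mH2A1.1 peaks, and no mH2A1 peak covered it. CBX8 (chr17:79792132-79801683, minus strand) was covered by mH2A1.1 peaks over 49.0% of its length and by mH2A1 peaks over 17.6%, both at the annotated start used here.

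CBX2 and CBX8 are neighbours on chromosome 17, and their starts lay in the widest peaks at the start of any member. The peak over CBX2 reached to the 3′ end of the gene, and 84000 of its 96000 bp were shared with mH2A1 peaks. A second mH2A1.1 peak of 135000 bp began inside CBX8 and ran over its annotated start, with 120000 bp shared. The mH2A1 peaks beside them were 93000 bp wide upstream of CBX2 and 75000 bp wide over the start of CBX8. RNA of both genes in KD stood at different values, a log2 fold change of 0.85 for CBX2 and -0.11 for CBX8. Whether these fold changes differ from each other was not tested.

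**Figure D5:**
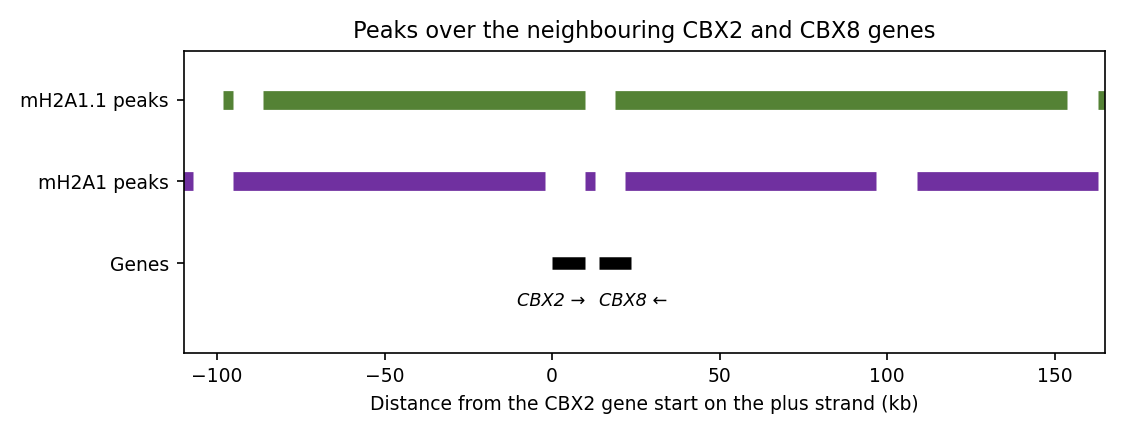
Peaks of mH2A1.1 (green) and mH2A1 (purple) in WT cells around CBX2 and CBX8 (black, arrows give the strand), with the distance from the CBX2 start in kb. A 96000-bp mH2A1.1 peak covers CBX2 and a 135000-bp peak covers the start of CBX8, with a gap in the peaks of both antibodies over part of CBX8.

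Of the 4 members with an mH2A1.1 peak there, EZH2 and SUZ12 were lower, CBX2 was higher and CBX8 overlapped. Of the 5 measured members without one, EED, RNF2 and BMI1 were lower and EZH1 and JARID2 were higher. EZH1 and JARID2 did have an mH2A1.1 peak within 500 bp of the start of another annotated transcript. With the GC content and length correction, the log2 fold changes were -0.09 for EZH2, -0.13 for SUZ12, 0.51 for CBX2 and -0.43 for CBX8, and without a peak at the start they were 0.30 for EED, -0.21 for RNF2, -0.47 for BMI1, 0.23 for EZH1 and 0.38 for JARID2. No member was called in either fit, and a relation between peaks and RNA was not tested.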

How the data were processed

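RNA-seq counts and ChIP-seq peak positions were used. Per the labels and the methods of the study, the authors aligned RNA-seq reads to hg38 with STAR 2.5.1, removed low-quality reads and duplicates and deposited whole-number counts per Ensembl gene from htseq-count with default parameters. The annotation release is not given in the sources used here. For ChIP-seq the authors removed low-quality reads, called enrichment with normR against input and deposited positions of merged 3000-bp bins with no score. The capture Hi-C samples were not analysed here.

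Identifiers were matched to GENCODE 44 (23061 of 23167). Counts without chromosomes 21, 22 and X (2309519 to 9184713 per library) were fitted with edgeR 4.0.16 (quasi-likelihood test, TMM, filterByExpr, Benjamini-Hochberg over 10963 genes). A call needs both a fold change above 1.5 and an adjusted p below 0.1. SE is the absolute log2 fold change divided by the square root of F. CPM and RPKM use the TMM library sizes and the summed length of annotated exons. The GC correction used lowess (span 0.3) on exon GC content, then on exon length, as offsets. Library ratios behind the medians of the GC bins used a pseudocount of 0.5 CPM and the mean of the WT log2 values. Library ratios of the members used the WT mean CPM and no pseudocount. DESeq2 1.42.0 was the other tool, and R was version 4.3.3. The tests were first tried on simulated counts without a trend with GC content. That trial does not show how they perform under the trend seen here. The default of htseq-count counts by strand, and whether this setting fits the stranded library kit was not settled here. No exon base of a member overlaps a counted gene on the opposite strand.

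A peak at a gene start overlaps the 500 bp on each side by at least 1 bp. Precision of low counts is limited by depth, and intervals are not given since SDs of 2 libraries stand in their place. The members and lists were chosen with earlier results of these data known. Named beside the members are genes of the other lists called by edgeR or by DESeq2 without the 3 chromosomes, textbook targets with at least 10 counts or a peak at the start, and MACROH2A1. RBBP7, KDM6B, CDKN2A and CDKN2B were named after their values were seen. 1 gene of the canonical PRC1 list is not reported here.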

Additional observations from a re-analysis of the deposited data

How the results depend on the processing

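The reported fit called 0 of the 9 measured Polycomb core genes, 0 of all genes and 0 of the other Polycomb genes. These counts were 0 as well with all chromosomes kept and with other scaling factors in edgeR. For core, all and other Polycomb genes in that order, DESeq2 without chromosomes 21, 22 and X called 0, 874 and 4, DESeq2 on all chromosomes 2, 945 and 4, edgeR without the filter on low counts 4, 2139 and 7, edgeR with GC content and length offsets 0, 585 and 1, and DESeq2 with the same offsets 0, 468 and 1. All genes with an adjusted p in these fits numbered 7765, 9262, 15068, 10963 and 7765, in the same order. Leaving out 1 library gave 0 to 5 core genes, 2 to 4744 genes and 0 to 15 other Polycomb genes, highest without KD replicate 1 (5, 4744 and 15), then without KD replicate 2 (2, 909 and 4). With the offsets, an alternative chosen after seeing the data, the counts were 3, 1769 and 5 without KD replicate 1 and 1, 659 and 3 without KD replicate 2. In these fits the lone KD library is assumed to vary like the WT libraries. With or without the offsets, 11351 genes were tested without KD replicate 1 and 11290 without KD replicate 2. The cause of these differences was not tested.

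The sign of EED reversed in 4 fits with the offsets: edgeR (0.30), DESeq2 (0.37), edgeR with the replicate block as well (0.34) and edgeR without KD replicate 1 as well (0.90). In edgeR with the offsets and without KD replicate 2, EED kept its sign, at -0.10. Without KD replicate 1 and with the offsets, EZH2 was at 0.0161 and RNF2 at 0.0568. Without the offsets, CBX8 was at 0.0066 without WT replicate 2 and -0.2311 without WT replicate 1, and over all alternatives run it lay between -0.74 and 0.0066. The cause was not tested. EZH1, SUZ12, JARID2, BMI1 and CBX2 kept their sign in all alternatives run, but not their size: CBX2 lay between 0.06 and 0.97 and BMI1 between -1.79 and -0.24.

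The labels number the replicates of both groups 1 and 2 without saying what a number shares. With 2 groups of 2, the deviations of WT replicate 1 and KD replicate 1 from their group means correlated at r = 0.236 over 10963 genes, which does not show that the numbers pair the samples. With the replicate block, edgeR called 4 core genes (CBX2 higher, and RNF2, BMI1 and SUZ12 lower), 2208 of all 10963 genes tested and 7 other Polycomb genes. With the block and the offsets it called 0, 813 of all 10963 and 2.

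The median WT level of the members was 12.1 RPKM over exons and 1.28 RPKM over the gene from start to end. The number of members with an mH2A1.1 peak at the gene start was 2 when at least 50% of the peak had to be shared with mH2A1, and 4 to 6 otherwise. It was 6 with the start of any annotated transcript, which added EZH1 and JARID2. The number with an mH2A1 peak at the gene start was 2 with the start of any transcript and 0 with the start of the Ensembl canonical transcript, an alternative chosen after seeing the data. Depth limits BMI1, CBX2 and CBX8 most, with 24 to 53 counts in KD replicate 2.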

Other observations

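Textbook Polycomb targets, developmental and cell cycle genes that Polycomb complexes silence in many cells, were mostly not counted in these libraries. Of 12 listed, 9 had 0 counts in all 4 libraries, which allows up to 3 counts a library for counting error only, and PAX6 had 1 count. CDKN2A and CDKN2B were among these 9, and their nearest mH2A1.1 peaks lay 1274301 and 1288305 bp from the gene start. Whether a gene without counts or peaks is silenced or missing from the genome of this line was not tested. GATA6, a transcription factor of endoderm, had 549 and 413 counts in WT and 263 and 86 in KD, and FOXA2, another endoderm factor, had 112 and 118 counts in WT and 62 and 35 in KD. The edgeR log2 fold changes were -0.30 for GATA6 and 0.00 for FOXA2 as reported and -0.55 and -0.40 with GC content and length offsets, and edgeR called neither gene in either fit. LHX2, GATA6 and FOXA2 had a peak of both antibodies at the gene start. Thus 3 of the 12 had an mH2A1.1 peak there, against 37.8% of the 23061 genes. The same 3 had an mH2A1 peak there, against 21.2%. FOXA2 lay wholly inside peaks of both antibodies.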
